A study of Mus musculus with 2 samples.

Results

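Most stretches of chromatin that carry trimethylation of histone H3 at lysine 4 (H3K4me3) are listed as 1 peak, but some are listed as a string of short peaks with small gaps. These strings were taken from the peak list of sorted mouse enteric neurons as runs of at least 4 successive peaks, each under 1000 bp wide and each less than 1000 bp from the next. The rule found 187 runs on 20 of the 21 chromosomes of the list. They hold 835 of the 29924 peaks, which is 2.79% of all peaks and 4.57% of the 18280 peaks under 1000 bp. Width and gap chose the members, so both are described here without a test, and so are the scores, which come from the same peak calls.

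Chromatin immunoprecipitation followed by sequencing was made on neurons of the small intestine sorted for NOS1, the neuronal nitric oxide synthase that marks the nitrergic motor neurons of the gut wall. The series holds 1 H3K4me3 library and 1 input chromatin library of such cells, and the labels used here name no other condition, strain or age. How many animals stand behind the sort is not given in the sources used here, and the sequencing depth is unknown. With 1 library there is no replicate, so every value below is a count or a value of that library, and the intervals are exact 95% Clopper-Pearson intervals that cover counting over runs, peaks or genes only.

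H3K4me3 sits on the nucleosomes around active promoters, where it is written by SET1 and MLL methyltransferase complexes drawn to unmethylated, CpG-rich DNA. An active promoter gives a block of signal that extends from the start of transcription into the first part of the gene, and unusually wide blocks are known from genes of cell identity. A peak caller lists 1 block as several peaks where the signal dips below its threshold, and it also lists neighbouring promoters as several peaks. In the gut wall, nitrergic neurons lie between layers of smooth muscle and among glia, fibroblasts and interstitial cells, each of which marks its own genes.

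The DNA at gene starts inside runs differed in CpG content from start to start, as it did at starts in other peaks. Below are the 250 bases before the annotated starts of Lmod1, S100b and Itgb1, and the 96 bases between the gene models of Peg3 and Usp29, from RefSeq on GRCm38.p6. All are on the plus strand, written 5′ to 3′, with each CpG in capitals. Lmod1 and the Peg3 and Usp29 pair came from the naming rule. S100b and Itgb1 were chosen after their values were seen, as a CpG-poor start and as the start under a run of high score.
Lmod1, chr1:135324563-135324812: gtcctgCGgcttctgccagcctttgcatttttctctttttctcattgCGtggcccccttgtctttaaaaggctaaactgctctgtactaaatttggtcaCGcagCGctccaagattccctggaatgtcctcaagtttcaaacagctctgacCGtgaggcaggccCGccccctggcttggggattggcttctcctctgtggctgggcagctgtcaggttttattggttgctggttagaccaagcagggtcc
S100b, chr10:76253586-76253835: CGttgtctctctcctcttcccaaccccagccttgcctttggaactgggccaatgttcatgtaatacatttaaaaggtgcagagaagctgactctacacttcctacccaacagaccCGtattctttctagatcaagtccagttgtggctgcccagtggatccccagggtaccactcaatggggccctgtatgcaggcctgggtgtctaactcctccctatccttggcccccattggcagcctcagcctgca
Itgb1, chr8:128685404-128685653: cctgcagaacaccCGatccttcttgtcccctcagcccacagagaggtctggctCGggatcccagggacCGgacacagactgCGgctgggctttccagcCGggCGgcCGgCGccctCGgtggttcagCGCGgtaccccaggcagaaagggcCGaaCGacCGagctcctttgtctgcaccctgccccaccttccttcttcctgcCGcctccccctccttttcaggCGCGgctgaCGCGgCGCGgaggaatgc
Peg3 and Usp29, chr7:6730463-6730558: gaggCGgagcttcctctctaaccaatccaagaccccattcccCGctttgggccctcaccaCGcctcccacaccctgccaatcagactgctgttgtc
The 250 bases of Lmod1 hold 6 CpG, those of S100b hold 2 and those of Itgb1 hold 21. The 96 bases between Peg3 and Usp29 hold 3. The stretch before Lmod1 also lies on the model of a noncoding gene, Gm41956.

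Runs were short strings of mostly weak peaks. Of the 187 runs, 123 (65.8%) had 4 peaks, 48 had 5, 11 had 6, 3 had 7 and 2 had 8. A run spanned 1161 to 5406 bp from its first to its last base, with a median of 2378 bp, and a median of 68.0% of that span was called as peak. Members were 153 to 996 bp wide with a median of 272 bp, and 56 of the 835 (6.71%) had 153 bp, the least width in the list. The gaps between them had a median of 167.5 bp.

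**Figure D1:**
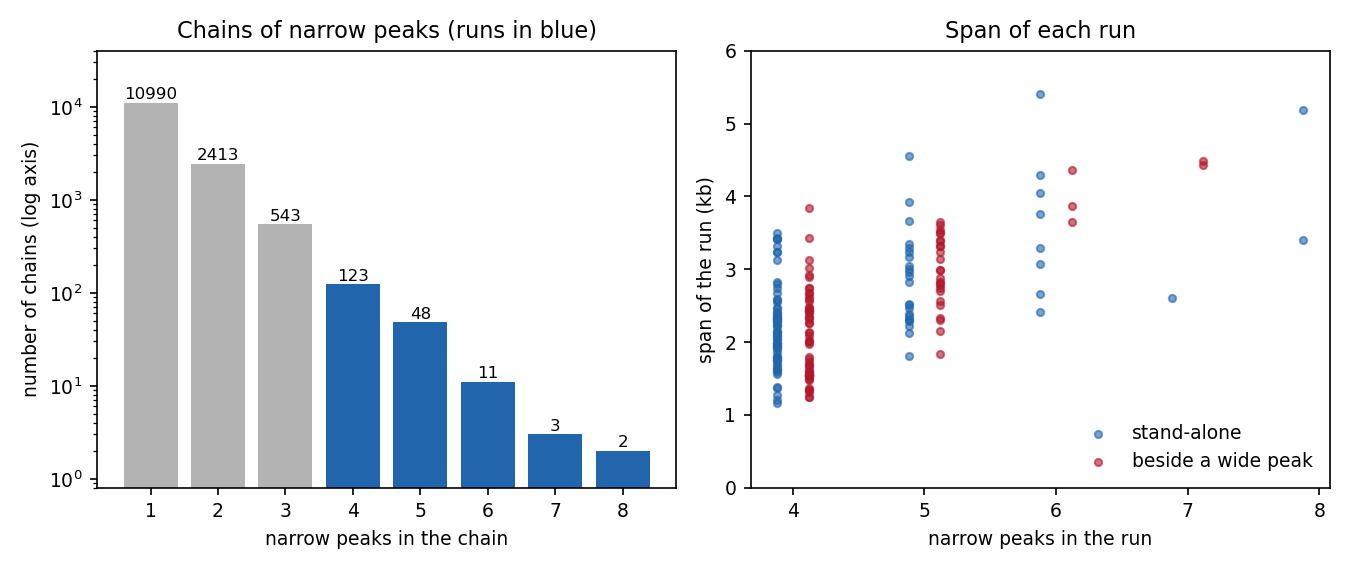
Left, number of chains of successive peaks under 1000 bp by the number of peaks in the chain, on a log axis, with the runs in blue; right, span of each of the 187 runs in kb by its number of peaks, blue for runs that stand alone and red for runs beside a peak of 1000 bp or more. Chains become fewer at every added peak, from 10990 lone peaks to 2 chains of 8, and the longest run spans 5406 bp.

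The score is the value per peak that the authors deposited, with a scale that no label or header states, so it ranks peaks within this list only. The median score of members was 8.23, against 11.1 for narrow peaks outside runs and 153.3 for peaks of 1000 bp or more. Most members lay low in the list, since 90.5% of them fell in the lower 50% of all scores, as did 77.4% of narrow peaks outside runs. Without the lowest 10% of scores, 84 runs met the rule, and among the higher 50% only 1 did. At a width under 300 bp the median scores of the 464 members and of the 7894 other peaks were 6.28 and 6.67. At 500 to 1000 bp they were 17.8 for 204 members and 43.4 for 5594 other peaks.

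The limits of the rule cut through a graded series. Just outside it were 543 chains of 3 peaks, with a median span of 1603 bp and a median highest score of 22.8. Just inside were the 123 runs of 4, with 2130 bp and 16.6. A peak of 900 bp or more stood in 27 runs and a gap of 900 bp or more in 10, so these runs were close to being divided.

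Runs occurred in 2 settings, in nearly equal number. A run of the stand-alone kind had no peak of 1000 bp or more within 1000 bp of it, and 100 runs (53.5%) with 450 peaks were of this kind. The other 87 runs (46.5%) with 385 peaks lay next to a wide peak, and 8 of these had a wide peak on each side. The widest neighbours had a median width of 2423 bp, with 107.65 as their median score, while the highest score in such a run had a median of 14.2. In stand-alone runs the median of the highest score was 23.2.

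The genes under the runs form a small part of those with the mark. At least 1 bp of a run lay on the model of 181 of 21887 protein-coding genes (0.827%), while 66.2% had any peak on the model and 51.1% had a peak of 1000 bp or more. Among genes with any peak, 1.25% had a run. Stand-alone runs lay on 104 genes (0.475%) and runs beside a wide peak on 81 (0.37%). Gene models with a run had a median length of 27.352 kb and an upper quartile of 91.3 kb, while models with any peak had 25.043 and 61.9 kb and all models 17.2 and 44.3 kb. Long models were thus more frequent among genes with a run, and the part of length in the shares was not tested.

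Where a run lay relative to its gene differed between the 2 settings. Of the 100 stand-alone runs, 56 (56.0%, 45.7 to 65.9%) reached to within 1 kb of where a protein-coding model begins or ends, but only 18 of the 87 runs beside a wide peak did (20.7%, 12.8 to 30.7%). Over all runs this was 74 of 187 (39.6%, 32.5 to 47.0%). Counted over peaks, 24.6% of members lay at such an end, against 37.2% of narrow peaks outside runs and 81.2% of wide peaks. Members of 1 run share a place, so these shares rest on fewer places than peaks. The 2 settings were set by whether a wide peak adjoins the run, and wide peaks mostly lie at such ends themselves. The shares of 56.0% and 20.7% thus depend on that definition and are a description only.

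Runs beside a wide peak that lay on a gene model were mostly past its nearest annotated start. Among 59 pairs of such a run and a gene with an annotated start, the run lay downstream of the nearest start in 48 (81.4%). It covered the start in 7 and lay upstream in 4. A gene was paired with a run only if the run touched its model, so runs wholly before a gene were not counted. The low upstream count thus follows in part from the pairing and is a description only. The distance of the downstream runs from the start had a median of 2592.5 bp, and 40 of the 48 (83.3%) were within 10 kb. The wide neighbour covered a start of the gene in 38 of the 59 pairs (64.4%). Stand-alone runs, in contrast, covered a start in 57 of 86 pairs (66.3%) and lay downstream in 24.

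A run over a start lay mostly downstream of it. In the 40 runs that spanned exactly 1 annotated protein-coding start, a median of 76.1% of the called bases lay downstream of it. Starts were annotated for 79.9% of protein-coding genes only, so some of these runs may span a further start. In 5455 wide peaks of the same range of spans, this median was 70.1%. The highest peak of the run was centred downstream of the start in 37 of the 40 (92.5%, 79.6 to 98.4%), at a median of 377.5 bp over all 40. The exceptions were Pou3f3 and Nfix, which encode transcription factors, and Cdca3, a regulator of entry into mitosis, with distances of -610.5, -404 and -871.5 bp. The Cdca3 run also lies over an end of the Usp5 model, a gene without an annotated start here, so its distance may refer to the wrong gene. The start itself lay inside a called peak in 26 of the 40 (65.0%, 48.3 to 79.4%) and in a gap in the others.

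Of the lists examined, that of the contractile apparatus of smooth muscle had the highest share of genes with a run. A run lay on 9 of 25 such genes (36.0%, 18.0 to 57.5%), where the background over all protein-coding genes was 0.827%. The list was chosen with earlier results of these data known, so this count is a description. Any peak lay on 24 of the 25 and a wide peak on 18. The genes with a peak had a median of 3 narrow peaks each, while the median over all genes with a peak was 1. Without the lowest 10% of scores in the list the share was 20.0%, and among the 50% of peaks with the higher scores it was 0%. Over all 21887 protein-coding genes, 85 and 2 had a run under these filters, so the 0% is no result about the list.

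Myh11, the smooth muscle myosin heavy chain, had 1 of the 2 longest runs by peak number. Its 8 peaks at chr16:14289499-14292896 were 153, 160, 580, 180, 156, 220, 284 and 576 bp wide, with scores of 4.33, 6.67, 8.62, 5.74, 5.29, 14.1, 15.4 and 11.8. The higher scores stood at the upper end of the run, which reaches across the end of the model at 14292188. No wide peak lay on this gene, and its highest score was 15.4.

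Actg2, the gamma actin of enteric smooth muscle, had 6 peaks at chr6:83531886-83535939 over a span of 4054 bp. Their widths were 246, 238, 213, 367, 739 and 154 bp and their scores 4.85, 7.32, 4.67, 8.23, 8.38 and 5.40. All 6 were below the 25% limit of the score list, 8.62. No other peak on Actg2 scored higher than 8.38.

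Des encodes desmin, the intermediate filament of muscle, and its run of 4 began 64 bp after the annotated start. The first peak was 711 bp wide with a score of 20.6, and the next 3 had scores of 4.67, 3.17 and 8.998. Lmod1, the leiomodin that starts actin filaments in smooth muscle, had the same shape, with a first peak of 860 bp that scored 13.9 over the start and scores of 5.29, 4.33 and 5.50 behind it. In each of the 2 genes the peak at the start was the widest and highest of its run, and the CpG-poor stretch before the Lmod1 start is printed above.

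Smtn, for the smooth muscle protein smoothelin, and Mylk, the kinase that activates smooth muscle myosin, were 2 of the 5 genes with 2 separate runs. The runs of Smtn lay 9385 and 4343 bp downstream of its nearest annotated start, and the nearer one stood beside a peak 1299 bp wide that scored 100.7. Its 5 and 4 peaks scored between 4.52 and 10.8. The runs of Mylk lay 138860 and 210665 bp from the nearest annotated start, far inside a long model, with scores between 3.87 and 11.6. The nearer of these 2 stood beside a wide peak of 1262 bp that scored 11.3.

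The remaining smooth muscle runs stood beside a wide peak. Tpm1, a tropomyosin, had 5 peaks with scores of 5.14 to 10.9 between wide peaks of 2027 and 3289 bp. They began 2606 bp downstream of the nearest annotated start. Myl9, a myosin regulatory light chain, began with a peak that was 963 bp wide and scored 22.3, followed by 3 peaks of 153 to 285 bp with scores of 5.43 to 7.88, next to a wide peak of 2129 bp with a score of 125.9. Synpo2, an actin-binding protein of muscle, was outside the naming rule and is named after its values were seen, with 4 peaks in 1252 bp beside a wide peak of 1181 bp.

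**Figure D2:**
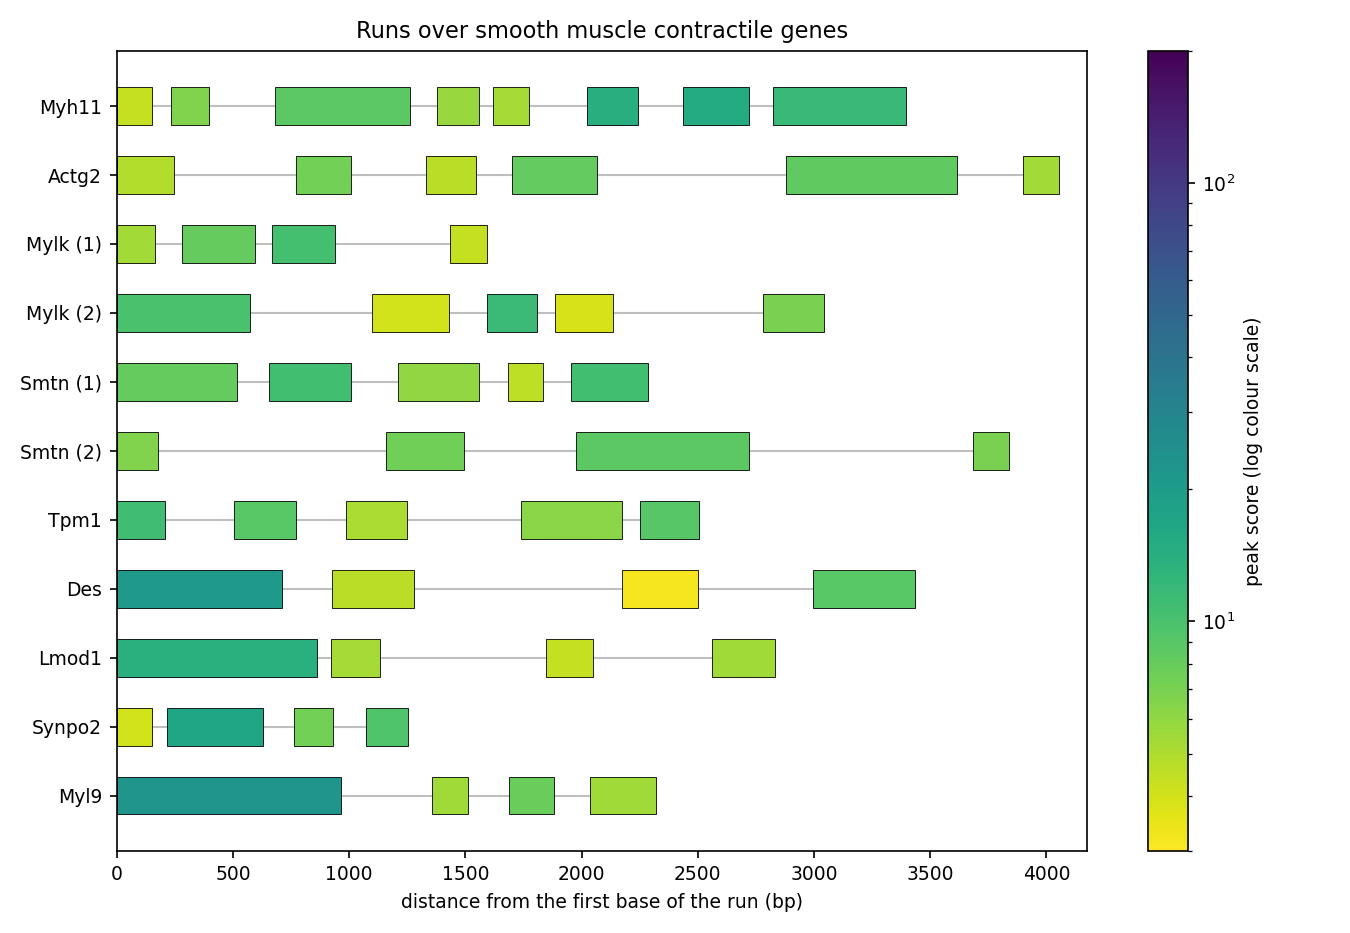
The 11 runs over the 9 smooth muscle genes, with each peak drawn as a box to scale by its distance in bp from the first base of the run and coloured by its score on a log colour scale. The Myh11 run has the most peaks, 8, and no peak drawn scores above 22.3.

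Several smooth muscle genes without a run came close to one. Acta2, Tagln, Csrp1 and Flna each had a chain of 3 narrow peaks, so 13 of the 25 genes (52.0%, 31.3 to 72.2%) had a chain of 3 or more. Smooth muscle genes without a run but with a peak had a median highest score of 131.7, and 13 of these 15 had a wide peak. Those with a run had a median highest score of 28.3, and 5 of 9 had a wide peak. In Actg2, Myh11, Des and Lmod1, which had no wide peak, the highest score on the model was that of the run.

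Whether smooth muscle chromatin took part in the sorted sample was not tested. In a bulk sample, fewer cells of a type and less mark per cell cannot be told apart. The list of leukocyte genes, which the gut wall also holds, had a peak on 6 of 18 and a run on 0, and the epithelial list had a peak on 10 of 20 and a run on 0. The endothelial list had a peak on 9 of 15 and a run on 1, Esam, which encodes an adhesion molecule. Over all protein-coding genes 66.2% had a peak and 0.827% had a run. The exact intervals of these lists hold 0.827%, so their run counts are no result about them.

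Among matrix, fibroblast and interstitial cell genes, a run lay on 4 of 25 (16.0%, 4.54 to 36.1%), and all 25 had a peak. Over all protein-coding genes 0.827% had a run and 66.2% had a peak. The runs of 3 of these 4 lay beside a wide peak. In Col3a1, a fibrillar collagen, 4 peaks with scores of 5.29, 24.5, 15.4 and 10.4 began 1626 bp downstream of the start, beside a wide peak of 1848 bp with a score of 73.5. In Sparc, a matrix glycoprotein, 4 peaks with scores of 4.54, 16.2, 3.41 and 8.23 lay beside a wide peak of 3779 bp with a score of 136.7. Pdgfra, the growth factor receptor of fibroblast-like cells, had 5 peaks with scores of 4.15 to 14.0. They began 683 bp past the nearest annotated start, ahead of a wide peak of 1518 bp.

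Nid1 was the stand-alone member of that list. It encodes nidogen, a basement membrane protein, and its run over the start had scores of 77.6, 72.5, 10.6, 9.32 and 6.16. The strong peaks stood together and the weak ones followed. Pdgfa, which encodes a ligand of the Pdgfra receptor, is not on the list and was named after its run was seen: 4 peaks with scores of 4.85 to 9.96 lay beside a wide peak of 6049 bp with a score of 158.2.

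Regulators of enteric neurons were the list with the next highest share, with a run on 5 of 20 (25%, 8.66 to 49.1%). The background over all protein-coding genes was 0.827%. All 20 had a peak and 19 had a wide peak, so the runs here stood on strongly marked genes. Tbx3, a T-box factor, had 5 peaks with scores of 6.28, 18.9, 8.29, 13.7 and 9.48 between a wide peak of 7495 bp, which scored 170.3, and another of 3460 bp. Zeb2, a zinc finger homeobox factor needed for the enteric nervous system, had scores of 16.6, 5.94, 12.9, 8.35 and 20.5 beside a wide peak of 6693 bp with a score of 143.8. Meis2, a TALE homeobox factor, had scores of 9.32, 13.9, 6.28, 4.85 and 8.38 beside a wide peak of 7438 bp that scored 70.8.

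The runs of these 3 genes carried scores far below those of the wide peak they adjoined. In Zeb2 and Meis2 they began 3426 and 5122 bp downstream of the nearest annotated start. Both gene models extend further upstream than that start. Meis1, the other Meis gene with a run, had 5 peaks with scores of 5.74 to 14.98. They stood alone 8349 bp downstream of the nearest annotated start, although the widest peak of Meis1 reached 8526 bp. Etv1, an ETS factor of nitrergic neurons, had 4 peaks with scores of 8.77, 14.1, 4.33 and 5.29 at chr12:38783318-38785791, over an annotated start at 38783711 that is not its first, at 38780082.

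**Figure D3:**
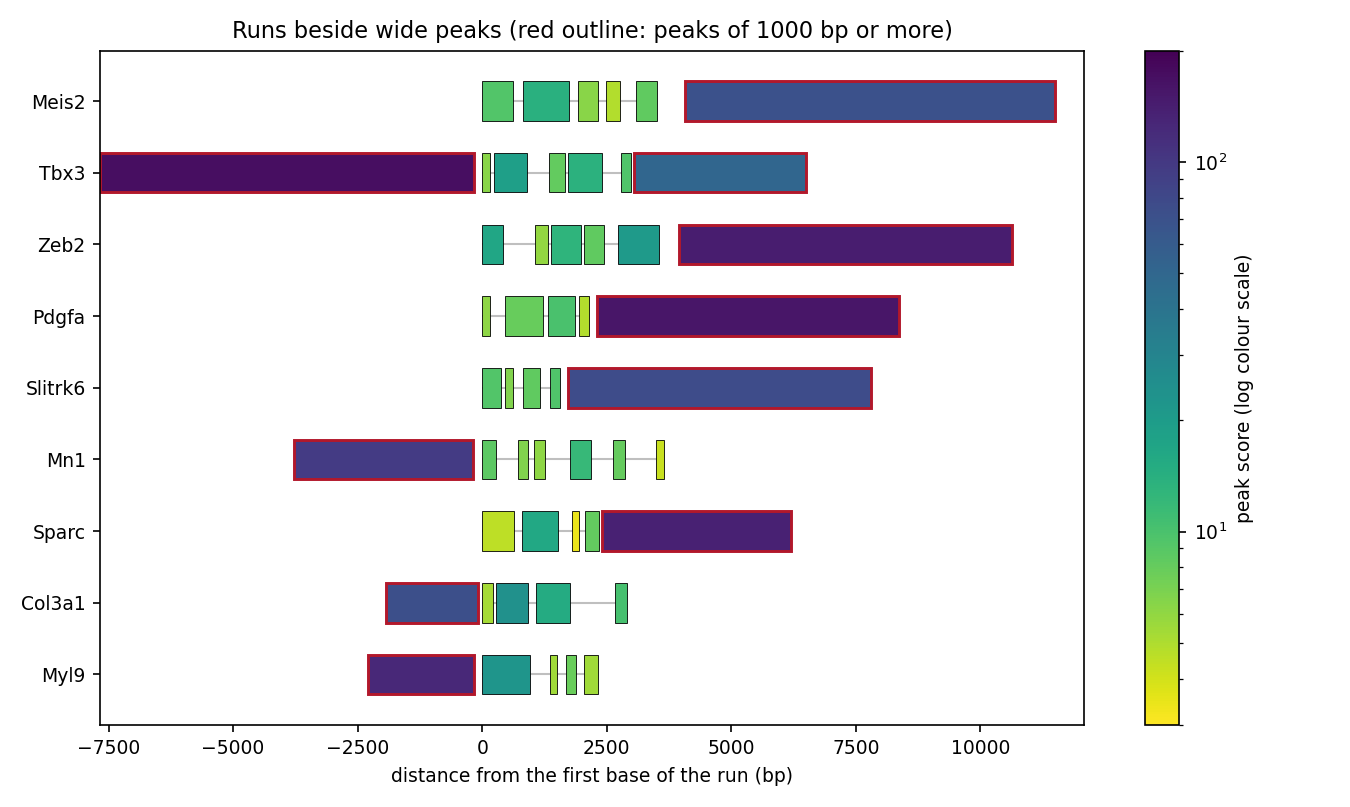
Runs and the wide peaks next to them at 9 genes, drawn to scale by distance in bp from the first base of the run, with wide peaks outlined in red and the score as a log colour scale. At each of these genes the wide peak scores higher than every member of the run, from 170.3 beside Tbx3 members of at most 18.9 to 70.8 beside Meis2 members of at most 13.9. The 9 genes are a selection. At some genes not drawn, Nfix and Hoxa3 among them, a member scored higher than the wide neighbour.

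Lists of neuronal effector genes had 1 gene with a run each, counts too small to set against the background of 0.827%. Of 20 pan-neuronal genes 19 had a peak, and 1, Elavl4, had a run (5.0%, 0.127 to 24.9%). Elavl4 encodes a neuronal RNA-binding protein, and its 4 peaks with scores of 8.38, 6.28, 7.32 and 4.33 lay upstream of its model's nearest annotated start, at -2591 bp. The synaptic vesicle list had a run on 1 of 22 genes (4.55%, 0.115 to 22.8%), Syt11, a synaptotagmin, with scores of 19.2, 49.6, 32.9 and 10.4 over its start. The voltage-gated channel list had 1 of 28 (3.57%, 0.0904 to 18.3%), Kcnc1, a potassium channel, with scores of 3.82 to 8.18 beside a wide peak of 1038 bp.

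The genes that name the neuron class gave counts of the same size. The nitrergic list had 1 of 12 (8.33%, 0.211 to 38.5%), Etv1, which is on the regulator list too. The list of other enteric neuron classes had 0 of 23 (upper limit 14.8%), where 9 genes had a peak. Both intervals hold the background of 0.827%. Nos1, the gene of the sort, had no run on its model. The nearest run to it, of 7 peaks at chr5:117842263-117844867, lay on no gene model and ended 21.972 kb before the first base of Nos1. Its peaks were 290, 219, 215, 213, 153, 205 and 213 bp wide, with scores of 6.67, 9.67, 4.33, 5.29, 6.67, 4.67 and 6.28, so they were alike in width and all weak. Which gene, if any, this run belongs to was not tested.

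Immediate early and stress genes were strongly marked, with a peak on all 36, a wide peak on 33 and a median highest score per gene of 145.3. None of the 36 had a run on its model (0%, upper limit 9.74%), which is near the background of 0.827% and no result about the list. The enteric glia list had a peak on all 15 genes and a run on 1 (6.67%, 0.169 to 31.9%). That gene was S100b, a calcium-binding protein of glia, with widths of 912, 313, 155, 219 and 177 bp and scores of 31.3, 9.13, 5.74, 15.1 and 5.01. The widest peak scored highest in it, at a start whose 250 bases hold 2 CpG.

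**Figure D4:**
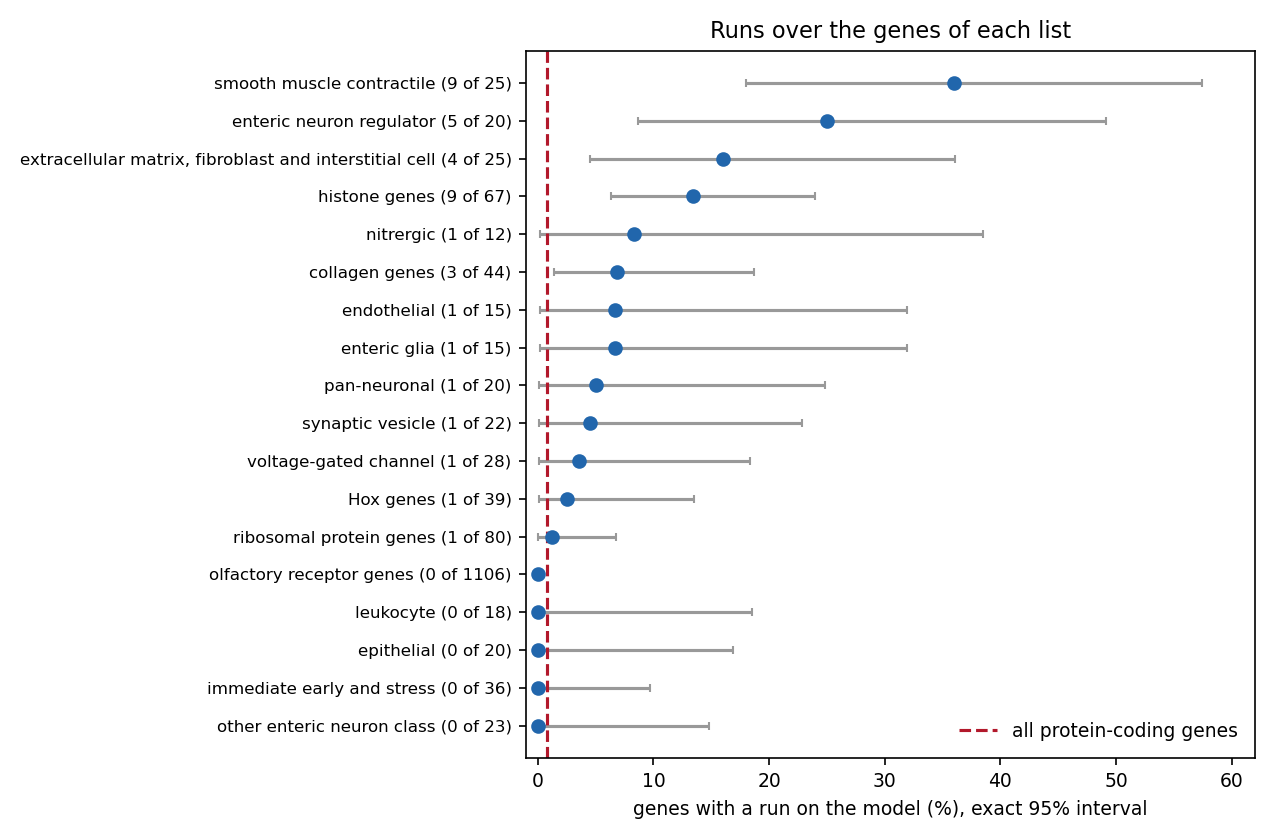
Share of the genes of each list with a run on the model, in percent, with the exact 95% interval over genes and the number of genes in brackets; the dashed line is the share over all protein-coding genes, 0.827%. The smooth muscle list stands at 36.0% and the enteric neuron regulator list at 25%, and 5 groups stand at 0.

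A small group of runs was strong. In 17 of 187 (9.09%) the highest peak was in the upper 25% of all scores, 140.8 or more, and 16 of these 17 stood alone. Such a run came within 1 kb of a gene end in 16 of 17, and of the ends of 2 or more genes in 7 of 17 (41.2%), against 12 of the other 170 (7.06%). The lowest score in these runs had a median of 4.85, so strong and weak peaks stood side by side.

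The highest score of any member was 273.7, in the run shared by Usp5, a deubiquitinase, and Cdca3. Its 5 peaks were 180, 907, 334, 580 and 261 bp wide with scores of 5.98, 88.3, 273.7, 135.3 and 11.9. The run at Dtymk, the thymidylate kinase, and Ing5, a chromatin reader, had scores of 144.4, 55.03, 77.6 and 257.1, and here no peak was weak. At Rer1, a protein of retrieval to the endoplasmic reticulum, scores of 254.8 and 164.8 stood between outer peaks of 6.67 and 5.03.

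Strong inner and weak outer peaks were also seen at other genes among the 10 runs of highest score. At Mrpl37, a mitochondrial ribosomal protein, and Cyb5rl the scores were 4.29, 187.2, 126.0 and 4.49, and at Usp35 and Kctd21 they were 7.63, 158.6, 182.7 and 2.91. In each of these 2 runs the inner peaks were wider, at 876 and 796 bp and at 926 and 936 bp. Itgb1, the beta 1 integrin, differed in having the strong peaks at one side, with 2 peaks of 918 and 992 bp with scores of 159.2 and 194.3 and then scores of 7.32 and 4.56. Peaks this wide were just inside the rule, and a width of 1000 bp would have taken them out. The remaining runs among the 10 of highest score were at Evi5l, Tmem86a, Spout1 and the pair Wbp1 and Ino80b, with highest scores of 220.0, 210.2, 202.3 and 190.9.

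Peg3 and Usp29 share the other run of 8 peaks, at chr7:6727107-6732292 over 5186 bp. They are imprinted genes expressed from the paternal copy and are transcribed in opposite directions from the stretch printed above. The peaks were 325, 314, 351, 916, 730, 700, 207 and 206 bp wide, with scores of 11.6, 19.2, 44.9, 77.6, 66.2, 24.5, 3.11 and 7.32. The scores rose to 77.6 and were lower on each side of that peak. Both starts lie within the span of the run, at 6730419 for Peg3 and 6730583 for Usp29. They are nearer to its upper end than to its lower end.

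Some runs lay across several neighbouring genes, so the name of 1 fragmented domain may not describe them. Histone genes, which stand close together in clusters, had 9 of 67 members under a run (13.4%, 6.33 to 24.0%), all in 4 stand-alone runs. The share over all protein-coding genes was 0.827%. Histone genes under the same run share a place, so the 9 rest on 4 places and the interval over genes is too narrow. The run over H2ac22 and H2bc22 had scores of 19.2, 34.4, 37.3 and 7.88, and the run over H4c9, H2ac11 and H2bc11 had 54.4, 8.62, 49.6 and 68.3. Over H2ac10 and H3c8, 3 of the 6 peaks lay on a gene model, so peaks and genes did not match one to one. A further run at chr1:171063696-171066002, with scores of 16.4, 46.2, 14.7, 16.0 and 9.19, lay over 3 transfer RNA genes beside the microRNA gene Mir6546 and Fcgr3, an immunoglobulin receptor gene, with 3 of its 5 peaks on the transfer RNA and microRNA genes.

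Other gene families had lower shares than the histone genes. A run lay on 3 of 44 collagen genes (6.82%, 1.43 to 18.7%), 1 of 39 Hox genes, Hoxa3 (2.56%, 0.0649 to 13.5%), 1 of 80 ribosomal protein genes, Rpl18 (1.25%, 0.0316 to 6.77%), and 0 of 1106 olfactory receptor genes. The background was 0.827%, which lies inside the intervals of the Hox and ribosomal protein genes. Only 2 olfactory receptor genes had a peak at all, whereas 77 of the ribosomal protein genes had one. These families were counted by symbol and were added after the data were seen.

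The other runs with many peaks lay on genes of varied function. Sdc4, the heparan sulfate carrier syndecan 4, had 7 peaks with scores of 2.39 to 9.90 that began 2480 bp downstream of the start, beside a wide peak of 2590 bp with a score of 98.9. Aopep, an aminopeptidase, had 7 peaks with scores of 5.89 to 10.7 between wide peaks of 2086 and 1436 bp, 280893 bp downstream of its start. Gpr20, a G protein-coupled receptor, had 6 peaks at chr15:73703514-73707801 with scores of 3.99, 8.23, 5.92, 12.04, 16.3 and 9.96.

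Runs of 6 peaks also lay at transcriptional regulators. At Tcf21, a mesenchymal basic helix-loop-helix factor, the scores were 3.17 to 19.2, beside a wide peak of 1582 bp. Those at Hmx2, a homeobox factor, were 5.36 to 17.0 in a stand-alone run. Those at Mn1, a transcriptional co-regulator, were 4.29 to 12.1, beside a wide peak of 3607 bp. A run on Dlx1as, the antisense transcript at the Dlx1 homeobox gene, had 4.14 to 19.2, beside a wide peak of 1038 bp. It touched no protein-coding model, Dlx1 included. Pde4c, a cyclic AMP phosphodiesterase, had 3.17 to 16.3. All of these members were below 35.7, the middle score of the list.

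Lrba, Pmepa1 and Lmna were the other genes with 2 runs. Pmepa1, an inhibitor of TGF-beta signalling, had 6 peaks with scores of 4.67 to 11.4 and 4 peaks with scores of 4.57 to 7.91. Lrba, a protein of vesicle traffic, had 6 weak peaks with scores of 3.87 to 6.67, and 5 with scores of 2.39 to 29.9. The run of 5 also came within 1 kb of an end of Mab21l2, a gene that lies within Lrba, but did not touch its model. Lmna, which encodes the nuclear lamins A and C, had runs with highest scores of 76.7 and 46.1. The run of Lrrc28 and Ttc23, 4554 bp long, began with scores of 173.2, 162.9 and 91.5 and ended with 14.1 and 7.63, while that of Bcor, a transcriptional corepressor on the X chromosome, stayed between 3.41 and 34.4.

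Starts within runs had fewer CpG than starts within wide peaks. The 250 bases before the start held a median of 14 CpG over 68 starts of 64 genes in runs and 18 over 9471 starts in wide peaks. The median was 11 over 1009 starts in lone narrow peaks and 3 over 9692 in no peak. Over 1023 starts in the other narrow peaks outside runs it was 14, the same as in runs, so this level is not particular to runs. A start counts as in a run when it lies within its span, gaps included. Starts in runs had 1 to 33 CpG each. The range was wider in every other class, with 0 to 56 in wide peaks, 0 to 51 in lone narrow peaks and 0 to 50 in the other narrow peaks. A wide spread is thus not particular to runs. The 24 starts in the runs whose highest peak was in the upper 25% of all scores had a median of 19, and the 44 in the other runs had 10.

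Short motifs were searched on both strands of the same windows. The letters TATAAA stood before 5 of 68 starts in runs (7.35%), before 4.89% of starts in wide peaks and before 19.2% of those in no peak, with 11.6% over all starts. In lone narrow peaks the share was 8.52% and in the other narrow peaks outside runs 6.06%, so runs were like other narrow peaks in this. The CArG box, the binding motif of serum response factor, stood before 3 of the 68 (4.41%) and before 1.39% of all starts. Those 3 were H2ac22, H2bc22 and Blvrb, and the first 2 share 1 stretch. None of the 3 is on the smooth muscle list. Of that list, only Lmod1 had a start among the 68, so this says nothing about the other smooth muscle genes with a run.

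**Figure D5:**
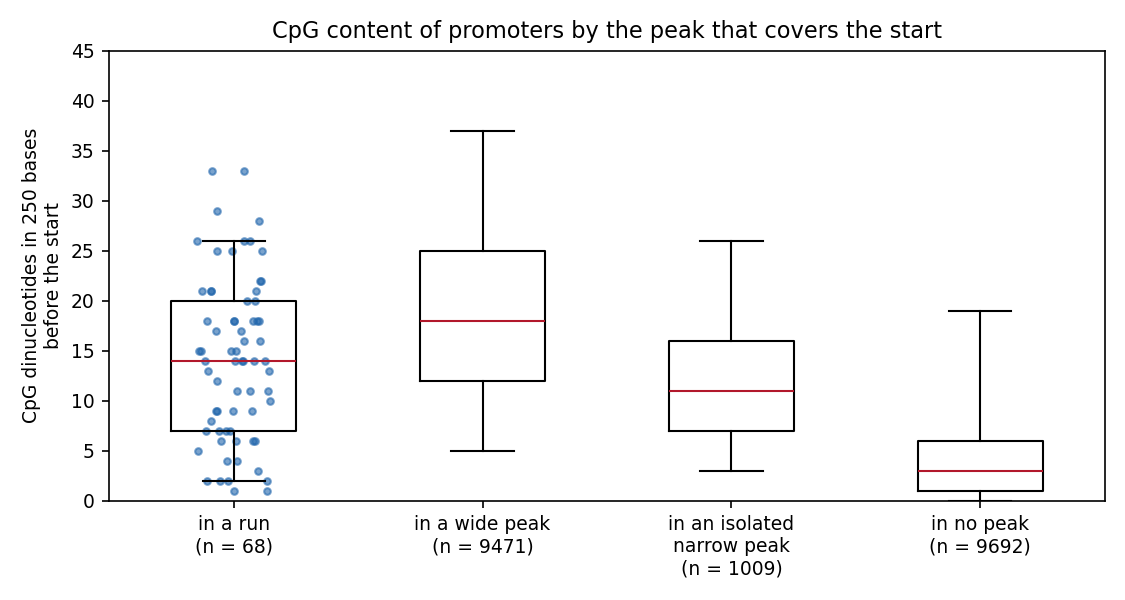
Number of CpG in the 250 bases before annotated starts, grouped by the peak that covers the start; boxes give the quartiles with the median in red, whiskers the 5% and 95% points, and blue points the 68 starts in runs. The median is 14 in runs, between 18 in wide peaks and 3 in no peak. Starts in the other narrow peaks outside runs, which are not drawn, also have a median of 14.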

How the data were processed

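The values are those of 1 H3K4me3 library of sorted NOS1+ neurons, and the input library has no values here. BWA, Picard, MACS2 and mm10 are named in the submitters' processing notes, without versions or roles. The reads were paired-end and MACS2 made the peaks, per the file headers. The score of each peak is the authors' deposited value, and its scale and threshold and the handling of duplicate reads are not stated in any label or header. Low depth splits and loses weak peaks first, so membership in a run depends on an unknown depth.

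Runs were found and counted with Python 3.11.15, pandas 2.3.3, numpy 2.4.6 and scipy 1.17.1, in code that was tested on simulated data. A peak of 1000 bp or more ended a run. Gene models and promoters were those of RefSeq on GRCm38.p6, with 21887 protein-coding genes. Both ends of the gene model were used because strand and start were known for only 79.9% of these genes. The annotated starts alone were added as an alternative after seeing the data. No genome was given, so no sequence under a peak was read. The promoter of Hmx2 is not printed because its window lies inside its own model.

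The members and the 13 gene lists (279 symbols, all found) were chosen with earlier results of these data known. Genes were named by a rule: those under the 15 runs with the most peaks, the 10 longest, the 10 of highest score and the 5 with the most peaks on no gene model, up to 8 per list, up to 5 genes with 2 or more runs, and Nos1. Other genes were named after their values were seen. No test was made, because 1 library has no replicate.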

Additional observations from a re-analysis of the deposited data

How the results depend on the processing

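The runs rest on weak peaks and on the limits of the rule. The number of runs, 187, and of protein-coding genes under them, 181, fell to 84 and 85 without the lowest 10% of scores and to 1 and 2 among the 50% of peaks with the higher scores. They were 730 and 694 for chains of at least 3 peaks, 16 and 15 for at least 6, 376 and 387 for widths under 2000 bp, 63 and 59 for widths under 500 bp, and 100 and 104 with runs beside a wide peak left out. Gaps under 500 bp (134 and 131) or 2000 bp (215 and 208) moved them by less than 1.5 times, as did 1 kb added to the models (191 genes). The share of runs at a gene end, 39.6%, was 50.4% for at least 3 peaks, 56.0% with runs beside a wide peak left out, 64.6% and 27.0% for widths under 2000 and 500 bp, 54.5% for a window of 2500 bp and 100% for the 1 run among the higher scores. At annotated starts alone it was 35.3%. The share of smooth muscle genes with a run, 36.0%, was 8.0% for at least 6 peaks (Actg2 and Myh11) and 0% among the higher scores, and 20.0 to 52.0% under the other alternatives. No paired analysis was possible because the series has 1 immunoprecipitate library and no replicate numbers. Depth is unknown, so a gap within a run cannot be told apart from signal lost to low depth.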

Other observations

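Of the 187 runs, 10 (5.35%) lay on no gene model. The longest of all runs was among them, at chr6:51168610-51174015, with 6 peaks over 5406 bp and scores of 24.5, 24.7, 12.9, 17.7, 38.4 and 36.9. It lay 48.9 kb from the nearest model, the noncoding gene Gm38821, and all its scores were above the median of the members. A run of 5 at chr9:3023473-3025937 had scores of 35.5, 42.6, 52.3, 12.1 and 20.4 on peaks of 153 to 272 bp, where the median score of all members under 300 bp was 6.28, and the nearest model, Alkbh8, was 309.3 kb away. It lies near the assembled start of chromosome 9, and since no list of repeats or blacklisted regions was used, the part of repeat sequence in these scores was not tested. A run of 4 on chromosome 15, at 67.0 kb from Ppara, had scores that stepped up along the chromosome, from 4.85 to 16.6, 28.3 and 55.4.

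Other runs off the models stood just beside a gene. A run of 4 with a highest score of 43.8 ended 49 bp from the model of Socs3, a feedback inhibitor of cytokine signalling, next to a wide peak of 3059 bp. A further 2 such runs, named after their values were seen, ended 54 bp from Ppp1r15b, a phosphatase subunit of the stress response, and 1.19 kb from Ccnd1, the cyclin of early cell cycle entry, with highest scores of 64.5 and 97.8. Socs3 is on the immediate early and stress list, so that list has a run beside a gene although it has none on a model.

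The imprinted gene Mest, expressed from the paternal copy like Peg3, also had a run, named after its values were seen. Its 4 peaks, with scores of 6.28, 8.52, 5.29 and 7.68, lay beside a wide peak of 2747 bp with a score of 78.8.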
